A study of Mus musculus with 21 samples.

Results

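KCNQ and HCN channels are voltage-gated channels that open near the resting potential and so set how readily a neuron fires. KCNQ proteins are potassium channels. Kcnq3 and Kcnq5 encode subunits of the M-current, which opens on depolarization, restrains repetitive firing and is turned off when receptors coupled to Gq deplete the membrane lipid PIP2, whereas Kcnq1 encodes the channel best known in the inner ear for secreting potassium into endolymph from strial marginal cells and vestibular dark cells. HCN proteins are cation channels that open on hyperpolarization and carry the h-current; they bind cAMP, to which Hcn2 and Hcn4 channels respond strongly and Hcn3 channels hardly at all, and in spiral ganglion neurons (SGNs), the neurons that carry sound information from hair cells (HCs) to the brain, the h-current contributes to the resting potential and to spike timing.

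Transcripts of 6 channel genes, Kcnq1, Kcnq3, Kcnq5, Hcn2, Hcn3 and Hcn4, were followed through the bulk RNA-Seq counts of purified mouse cochlear cells. They were chosen by name and were 6 of the 52550 genes in the count table, so statements here concern these genes and not the KCNQ or HCN families as wholes. The 21 libraries formed 7 groups of 3: SGNs of the embryo (E15.5) and of 4 postnatal ages (P1, P8, P14, P30), cochlear glia (P8) and HCs (P12), all from animals given as strain C57BL/6. SGNs were picked by hand as tdTomato+ cells of mice with ShhCre/+ and the Cre-dependent reporter Rosa26-CAG-loxp-stop-loxp-tdTomato/+, 69 to 195 cells a library, so SGN types were not separated. HCs carried the same reporter turned on by Atoh1-CreER+ after tamoxifen at P0 and P1, came from cochlea and vestibule together and numbered 1200 a library. The labels give manual sorting for all cells, the study's methods FACS for HCs. Glia were labelled with vGlut3-iCreER/+ after tamoxifen at P2 and P3, were picked only from the ganglion and numbered 86 to 125 a library. Apart from the number of cells picked, age is the only labelled difference among the SGN groups, while cell type goes with the Cre line, the age, the dissected region, the cell number and, for HCs, possibly the way of sorting in the other comparisons and cannot be told apart from them.

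Library totals ranged from 10368240 to 37287489 counts. Values below are normalised CPM, that is, counts set to a common library size and scaled by the trimmed mean of M-values (TMM) over all 21 libraries, and are given for replicates 1, 2 and 3 in that order. Levels are compared between genes only as normalised CPM per kilobase of exon or as shares of TPM, a length-corrected transcript measure, within 1 library, because a single RNA of 57 bases, Gm23935, took between 8.17% and 68.1% of a library's TPM and moved the TPM of every other gene with it. The markers followed the labels: the summed level of the 3 SGN markers Slc17a6, Slc17a7 and Lypd1 was 41.5 to 358 normalised CPM per kilobase in SGN libraries against 1.56 to 2.84 in HC libraries, and that of the 2 glial markers Sox10 and Foxd3 was 172 to 305 in glia against 0.205 to 19.5 in SGN libraries. The 2 outer HC markers Slc26a5 and Ocm summed to 768 to 897 in HC libraries, against 0.0435 to 82.7 in SGN libraries at E15.5, 179 to 243 at P1, 160.0 to 296 at P8, up to 257 at P14 and 36.1 to 274 at P30. Some libraries stood apart. Glia replicate 1 held an SGN marker sum of 32.1 against 4.58 and 1.66 in the other two glia libraries, SGN libraries at P8 held 642 to 1057 for 6 Schwann cell myelin genes against 6131 to 8593 in glia and 36.4 to 124 at P1, and P14 replicate 1 had the highest sum of SGN libraries for 5 HC markers, 54.3, and a glial marker sum of 8.86 against 4.12 and 4.01 in the other two P14 libraries.

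A gene was called between SGN ages when limma-voom gave a Benjamini-Hochberg adjusted p under 0.05 over all 15113 genes tested and a change over 2-fold; between cell types the limits were 0.01 and 4-fold over 17531 genes. All 6 channel genes passed the expression filter of both fits. A lower value in these bulk libraries cannot be split into fewer expressing cells and fewer transcripts per cell.

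Of the 6 genes, 3 changed from E15.5 to P1, all upward, where 8.26% of tested genes were called. The outer HC marker sum was also higher in each P1 library than in any at E15.5, as given above. Its part in these changes was not tested, and the HC libraries, of P12 and of cochlea and vestibule together, give no HC levels at these ages. From P1 to P8, 4 changed, with Kcnq5 and Hcn2 going up and Kcnq3 and Hcn3 going down, against 7.44% of genes. From P8 to P14 Hcn2 alone changed, against 0.536% of genes, and from P14 to P30 none of the 6 was called in limma-voom, edgeR or DESeq2, against 0.0596% in limma-voom, and 1 of the 6, Kcnq5, had an unadjusted p under 0.05 in limma-voom. Across the whole span from E15.5 to P30 the called genes were Kcnq5 and Hcn2, both upward, against 34.6% of genes. From P1 to P30 they were Kcnq5 and Hcn2, upward, and Kcnq3, downward, against 19.6%. Comparisons that follow each other in age share the libraries of the age between them.

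**Figure D1:**
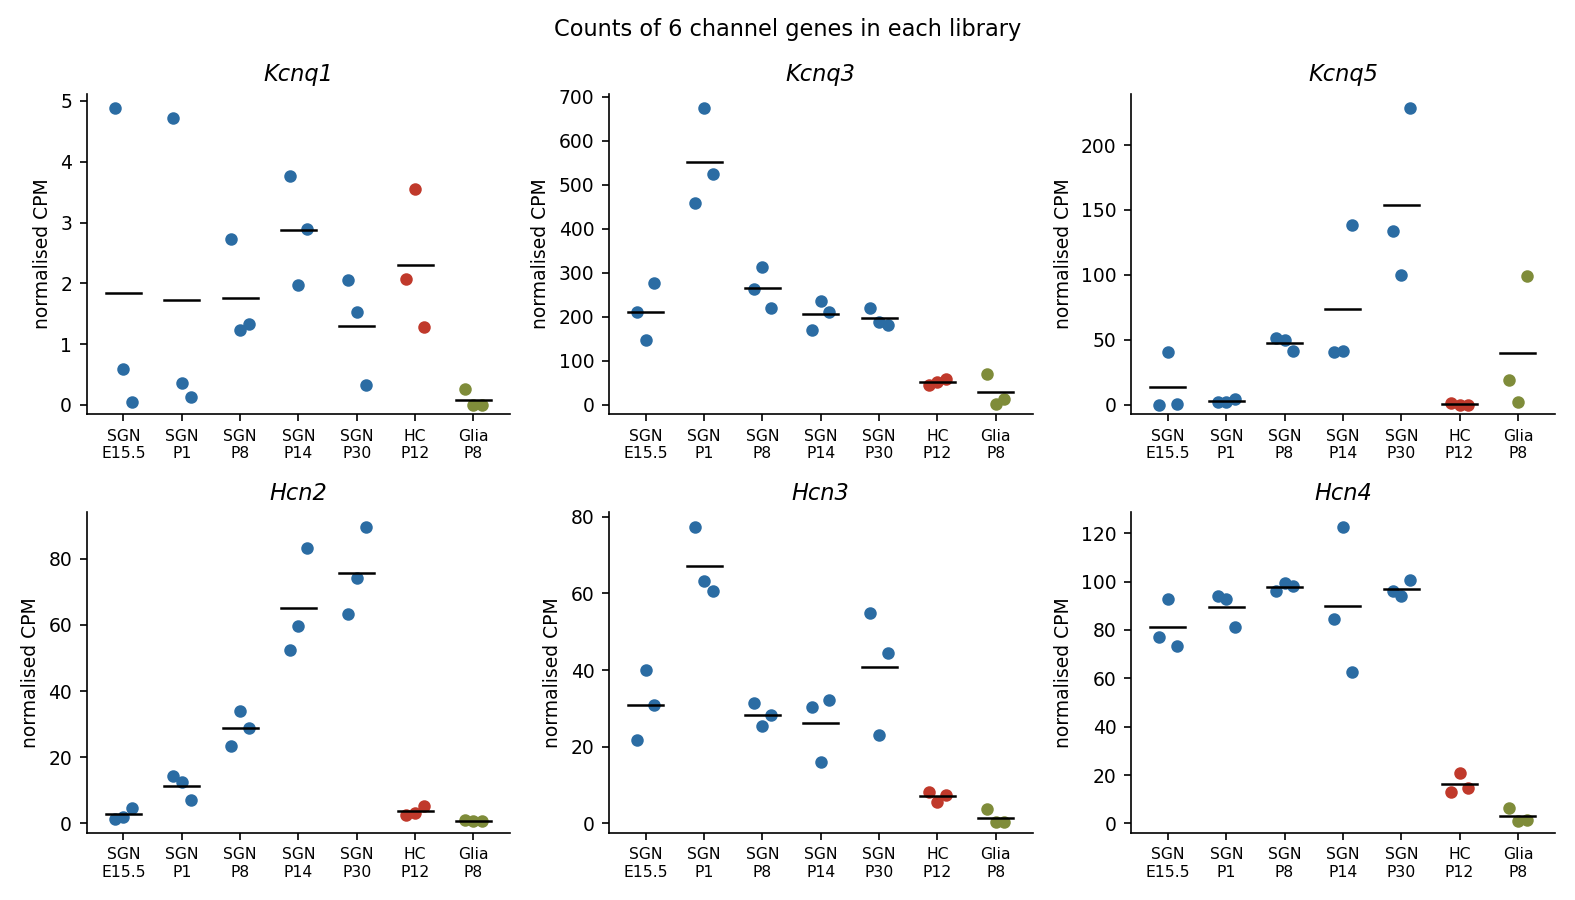
Normalised CPM (linear axis, a separate scale for each gene) of the 6 channel genes in every library. Each point is 1 of the 3 libraries of a group (blue, SGN; red, HC; green, glia) and each black bar is the group mean. Kcnq3 and Hcn3 stand highest at P1, Hcn2 climbs with age, and the Hcn4 points of all SGN ages lie between 62.7 and 123.

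Kcnq3, whose protein assembles with other KCNQ subunits into M-channels, had the highest mean level per kilobase of the 3 Kcnq genes in SGNs up to P14. It measured 212, 146 and 277 normalised CPM at E15.5, 458, 673 and 524 at P1, 262, 314 and 220.5 at P8, 170.4, 235 and 211 at P14, and 219.8, 189 and 182 at P30. Every P1 library stood above every other SGN library, and the ranges of the other 4 ages overlapped in part. The rise to P1 was 2.65-fold (log2 1.40 ± 0.21 SE, adjusted p = 0.000968 in limma-voom with Benjamini-Hochberg adjustment). The fall to P8 was 2.04-fold (log2 -1.03 ± 0.20 SE, adjusted p = 0.00282), just past the 2-fold limit. Without P1 replicate 2, P8 replicate 3 or the filter on low counts the fall came to less than 2-fold. P1 replicate 2 also held more HC marker RNA than P1 replicates 1 and 3. Its inner HC markers Slc17a8 and Otof summed to 46.6 normalised CPM per kilobase against 4.60 and 3.69. Its 5 HC markers summed to 47.8 against 26.2 and 25.5. The part of HC RNA in its Kcnq3 value was not tested. Between E15.5 and P30 the difference was log2 -0.08 with a 95% confidence interval from -0.58 to 0.42 and was not called. Kcnq3 lies at chr15:65986387-66286642 on the minus strand (GRCm38) and shares no exon with another annotated gene.

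Kcnq5 encodes the other M-current subunit followed here, one that can form channels on its own or with Kcnq3. Its values at P1 were 1.94, 2.29 and 4.92 normalised CPM, at P8 51.8, 50.3 and 41.2, at P14 40.8, 41.5 and 139, and at P30 134, 100.3 and 228. The P1 and P8 ranges lay far apart, and P14 replicate 3 fell within the P30 range while the other two P14 libraries fell at or below the P8 range. The rise from P1 to P8 was 17.7-fold (log2 4.14 ± 1.04 SE, adjusted p = 0.0157), the largest log2 change of the 6 genes at any step between successive ages in this fit. It lost its call in edgeR (adjusted p = 0.0712) and without any 1 of the 3 P1 libraries (adjusted p = 0.0540 to 0.0883), at log2 3.84 to 4.50. That from P1 to P30 was 52.2-fold (log2 5.71 ± 1.02 SE, adjusted p = 0.000525). From P14 to P30 the estimate was 2.37-fold (log2 1.25 ± 0.44 SE) with an adjusted p of 0.520 and a 95% confidence interval from 0.31 to 2.18.

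The E15.5 libraries disagreed over Kcnq5. They held 4, 846 and 8 reads, that is 0.267, 41.1 and 0.388 normalised CPM, so replicate 2 alone was at the level of the P8 libraries and the other two were below every P1 library. That library also had the lowest SGN marker sum of the 15 SGN libraries, 41.5 normalised CPM per kilobase. The other E15.5 libraries were close to it, at 46.8 and 55.8, and every later SGN library was at 97.5 or more. The glial marker sum of replicate 2, 4.62, lay between those of replicates 1 and 3 at E15.5, 1.38 and 10.9. The E15.5 to P1 difference was log2 0.50 with a 95% confidence interval from -2.95 to 3.95, and it became 2.92 without that library. The call from E15.5 to P30 (log2 6.21 ± 1.33 SE, adjusted p = 0.00156) was kept without it, at log2 8.62.

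Glia contained Kcnq5 too. Their libraries held 19.5, 1.92 and 99.1 normalised CPM, a spread wide enough to take in every SGN library at P1 at one end and the P8 libraries in its middle. The myelin gene sum rose with Kcnq5 from P1 to P8, as given above, but at P30 it was 188, 41.5 and 8.02 normalised CPM per kilobase in replicates 1, 2 and 3, and replicate 3, with the lowest sum, had the highest Kcnq5 value of all 21 libraries, 228. The share of glial RNA in the P8 value was not tested. Kcnq5 lies at chr1:21398403-21961942 on the minus strand, and 237 of its exon bases, 3.08%, overlap the antisense gene Gm26580.

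Kcnq1 was the least abundant of the 6 genes per kilobase in SGNs at P30, with no more than 165 reads in any of the 21 libraries. It measured 4.88, 0.583 and 0.0484 normalised CPM at E15.5 and 4.72, 0.356 and 0.127 at P1, where replicate 1 stood far above the other two at both ages. Replicate 1 was also the highest of its group at P8 (2.73 against 1.23 and 1.33), P14 (3.77 against 1.97 and 2.89) and P30 (2.06 against 1.53 and 0.322). The same libraries held RNA of other cells. The 4 hemoglobin genes summed to 115 normalised CPM per kilobase in replicate 1 against 0 and 0 at E15.5, 19.2 against 0.119 and 0.104 at P1, 22.1 against 0 and 0 at P8 and 15.2 against 0.135 and 2.57 at P30, though to 0.973 against 0.262 and 2.61 at P14. The 5 connective tissue genes summed to 79.7 against 4.53 and 4.05 at P1, 113 against 14.6 and 10.4 at P8, 32.4 against 3.66 and 4.33 at P14 and 17.8 against 0.451 and 0.173 at P30, but to 18.3 against 25.5 and 4.62 at E15.5. Glia held 214 to 370 of the connective tissue genes with at most 5 reads of Kcnq1, and the part of these cells in the Kcnq1 values was not tested. From P8 on, SGN values ran from 0.322 to 3.77, and no age comparison was called. The 95% confidence interval of the E15.5 to P30 difference ran from log2 -2.02 to 4.01, so with this spread between libraries a large change in either direction was not detectable. For marginal and dark cells, 6 genes, among them Kcne1, Bsnd and Esrrb, summed to 0.196 to 8.98 normalised CPM per kilobase in SGN libraries. Esrrb alone had a mean of 7.09 at P30, and Lrp2 reached 7.43 in 1 P8 library. Kcne1 had reads in SGNs only in replicate 1, with 2 at E15.5 and 6 each at P1, P8 and P30. At P1, P8 and P30 replicate 1 had 1 of the 6 genes at 0 reads, against 3 to 5 in the other libraries of those ages. The part of marginal and dark cells in the Kcnq1 values was not tested. Kcnq1 (chr7:143106362-143427042, plus strand) surrounds the antisense transcript Kcnq1ot1, which shares 121 exon bases with it, 2.96% of its exons, and was at 1.12 to 3.75 normalised CPM per kilobase in SGN libraries, where the group means of Kcnq1 were 0.319 to 0.703 on that scale. No strand setting is stated for the counting, and what part of the Kcnq1 reads came from that overlap was not tested.

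**Figure D2:**
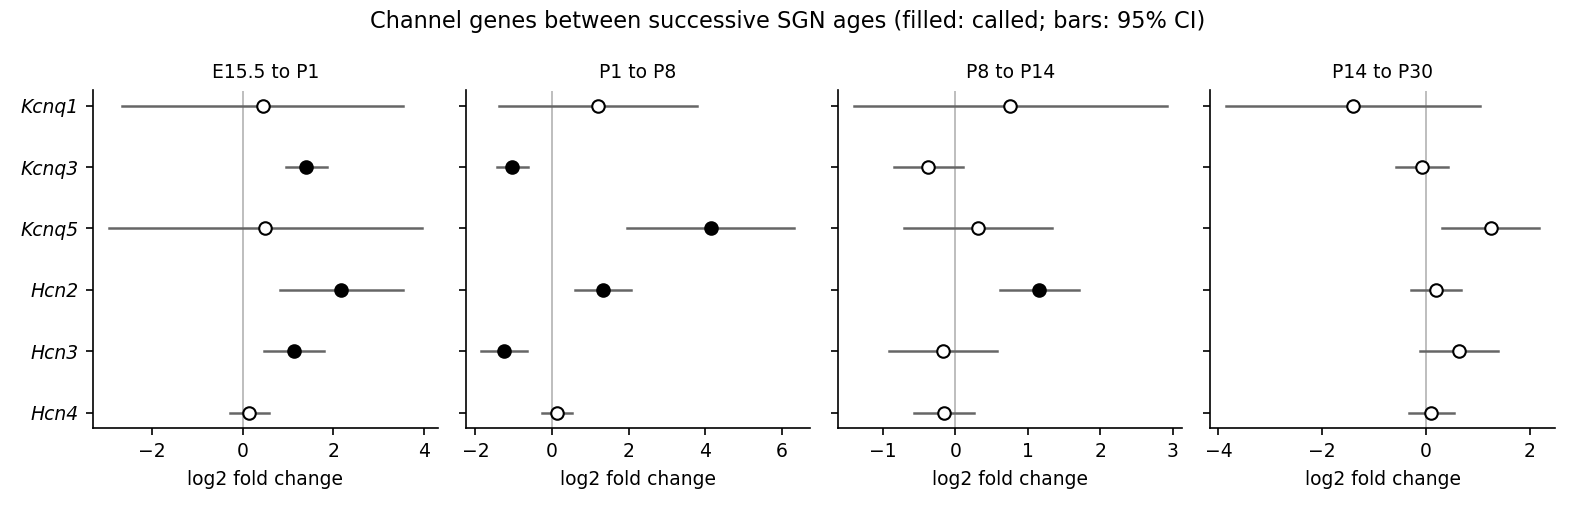
Log2 fold change of each gene between successive SGN ages (later over earlier, limma-voom over 15 libraries). Points are estimates, bars 95% confidence intervals, and filled points passed an adjusted p of 0.05 and 2-fold. Kcnq3 and Hcn3 are up at P1 and down at P8, Hcn2 is up at 3 steps running, and every Hcn4 interval crosses 0.

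Hcn2, a subunit of fast-opening h-channels with a strong response to cAMP, rose at each of the 3 steps up to P14. Its values were 1.40, 2.09 and 4.60 normalised CPM at E15.5, 14.4, 12.5 and 7.17 at P1, 23.4, 34.0 and 28.8 at P8, 52.5, 59.6 and 83.2 at P14, and 63.3, 74.0 and 89.7 at P30. No library of one age overlapped the next until P14 and P30, whose ranges overlapped for the most part. The steps were 4.53-fold to P1 (log2 2.18 ± 0.64 SE, adjusted p = 0.0386), 2.52-fold to P8 (log2 1.33 ± 0.34 SE, adjusted p = 0.0184) and 2.23-fold to P14 (log2 1.16 ± 0.26 SE, adjusted p = 0.0454), all by limma-voom. From P14 to P30 the difference was log2 0.19 with a 95% confidence interval from -0.30 to 0.68. Over the whole span Hcn2 came to 29.0-fold (log2 4.86 ± 0.60 SE, adjusted p = 9.59e-06), a call kept in all 16 alternatives, with log2 4.40 to 5.34.

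The single steps were less secure than the span. The rise to P14 passed in 4 of 16 alternatives, with adjusted p from 0.0171 to 0.222, and was lost in edgeR, in DESeq2 and when any 1 of the 6 P8 and P14 libraries was left out, including P14 replicate 1 with its higher HC and glial markers (log2 1.30, adjusted p = 0.0596). The rise to P1 passed in 7 of 16 and was lost without any 1 of the 3 E15.5 libraries or P1 replicate 1 or 2 (adjusted p = 0.0593 to 0.0975), and that to P8 passed in 13 of 16 and was lost without P1 replicate 3 or P8 replicate 2 or 3 (adjusted p = 0.0569 to 0.0779). All of these estimates were upward. Hcn2 lies at chr10:79716634-79736108 on the plus strand and shares no exon with another annotated gene.

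Hcn3, which encodes a slow subunit that responds little to cAMP, peaked at P1 as Kcnq3 did. It measured 21.7, 40.1 and 30.8 normalised CPM at E15.5, 77.4, 63.1 and 60.7 at P1, 31.4, 25.4 and 28.4 at P8, 30.3, 16.1 and 32.1 at P14, and 55.0, 23.2 and 44.5 at P30. The P1 libraries stood above all others, and the remaining ages overlapped. The rise to P1 was 2.19-fold (log2 1.13 ± 0.31 SE, adjusted p = 0.0292), kept in 7 of 16 alternatives and lost without E15.5 replicate 1 or 3 or any 1 of the P1 libraries (adjusted p = 0.0506 to 0.0970). The fall to P8 was 2.37-fold (log2 -1.25 ± 0.29 SE, adjusted p = 0.00968), kept in 15 of 16 and lost without P1 replicate 1 (adjusted p = 0.0554). At P30 the gene was log2 -0.78 from its P1 level (95% confidence interval from -1.38 to -0.18, adjusted p = 0.0524) and log2 0.35 from its E15.5 level (from -0.37 to 1.08), neither of them called. Hcn3 lies at chr3:89146074-89160196 on the minus strand, and 711 of its exon bases, 17.1%, overlap Pklr on the opposite strand.

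Hcn4, the subunit of the cardiac pacemaker current, slow to open and strongly tuned by cAMP, was not called in any comparison of ages. It measured 77.1, 92.7 and 73.3 normalised CPM at E15.5, 94.0, 92.7 and 81.2 at P1, 96.2, 99.3 and 98.0 at P8, 84.7, 123 and 62.7 at P14, and 96.2, 94.1 and 101 at P30. The 5 group means lay between 81.0 and 97.8, and groups next to each other in order of mean overlapped. By age, each P8 library stood above each P1 library. The P14 libraries held both the highest and the lowest value. The E15.5 to P1 difference was log2 0.15, with a 95% confidence interval from -0.28 to 0.57. From E15.5 to P30 it was 0.23, from -0.20 to 0.66, and from P1 to P30 0.08, from -0.32 to 0.49. These intervals leave out a 2-fold change in either direction. Scaling by library size alone turned the estimates for E15.5 to P30 and P1 to P30 negative, as it moved the median of all genes from log2 -0.01 to -0.48 and from -0.09 to -0.42. Hcn4 lies at chr9:58823412-58863175 on the plus strand and shares no exon with another annotated gene.

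The mixture of the 3 Hcn transcripts can be read within each library without any scaling between libraries. Hcn2 made up at most 6.91% of their summed TPM at E15.5, 7.45% to 11.7% at P1, 23.9% to 32.3% at P8, 43.7% to 59.1% at P14 and 40.6% to 52.5% at P30. Hcn4 went from 57.5% to 69.0% at E15.5 to 29.8% to 34.9% at P30. The share of Hcn3 was highest at P1, 44.4% to 48.5%, and was 12.6% to 27.1% at P30. At P1 it was the largest of the 3 in each library, though in replicate 2 only by 44.4% against 44.2% for Hcn4. For Hcn2 the ranges did not overlap from any age to the next up to P14, and for Hcn4 those of E15.5 and P30 lay clear of each other.

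The Kcnq mixture shifted in the same weeks. Kcnq5 was 0.628% to 1.71% of the summed TPM of Kcnq1, Kcnq3 and Kcnq5 at P1, 22.7% to 26.1% at P8, 24.2% to 53.9% at P14 and 49.0% to 69.9% at P30. Kcnq3 went from 95.8% to 99.2% at P1 to 29.9% to 49.6% at P30. Per kilobase of exon, Kcnq5 was at 13.0 to 29.7 normalised CPM at P30 and Kcnq3 at a mean of 13.8 ± 1.42 (SD, n = 3), set against means of 0.397 ± 0.212 and 38.6 ± 7.74 at P1. Hcn2 reached 23.7 ± 4.14 at P30, Hcn4 15.8 ± 0.537 and Hcn3 9.84 ± 3.90 on the same scale.

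**Figure D3:**
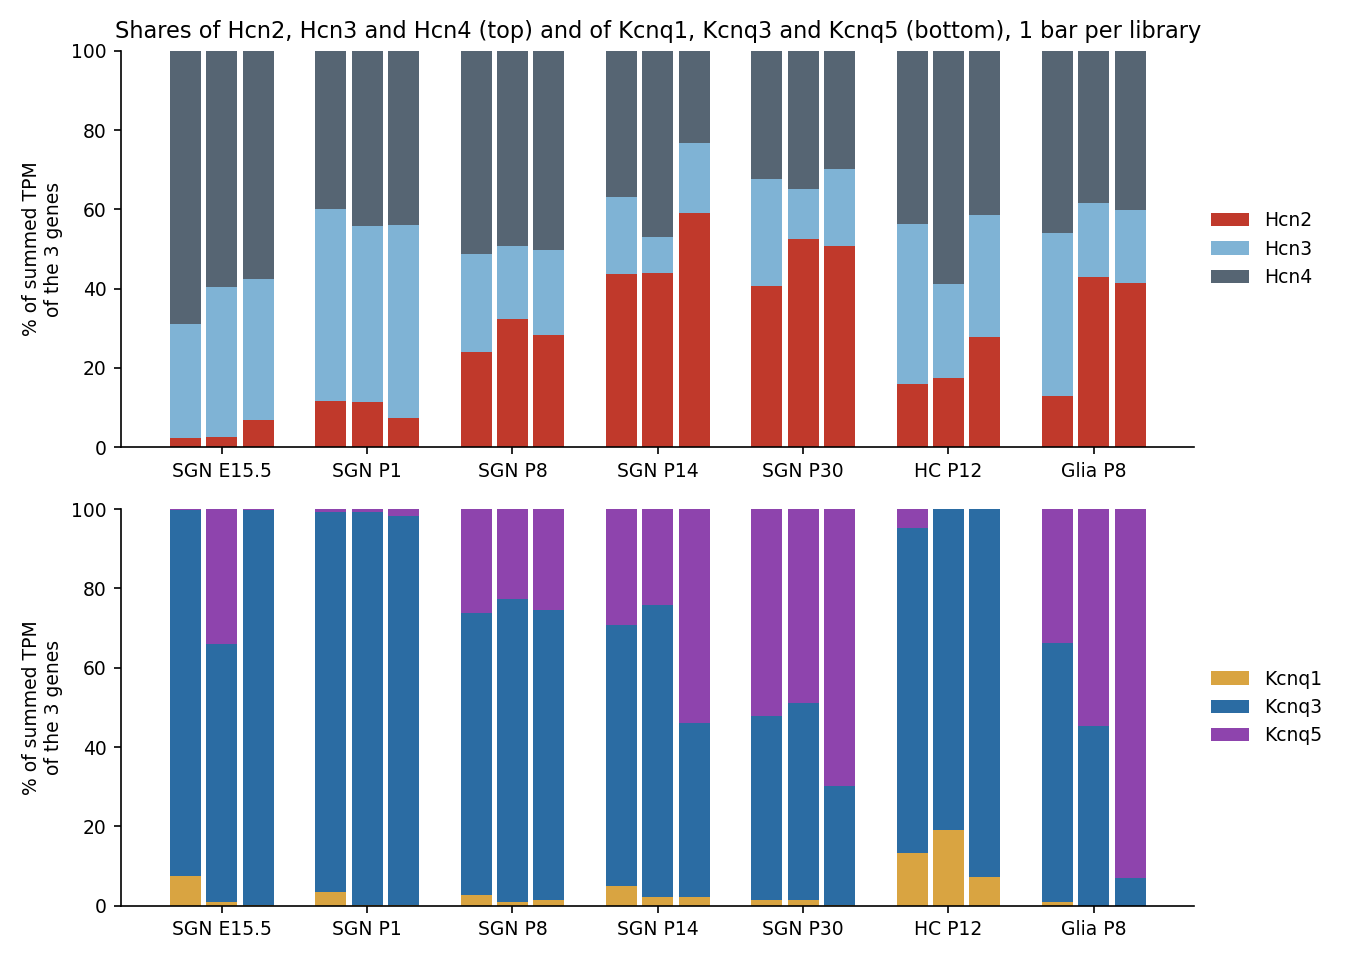
Share (%) of the summed TPM of Hcn2, Hcn3 and Hcn4 (top) and of Kcnq1, Kcnq3 and Kcnq5 (bottom) in each of the 21 libraries, 1 stacked bar per library and 3 bars per group. The Hcn2 share in SGNs grows from at most 6.91% at E15.5 to at least 40.6% at P30, and the Kcnq5 share from at most 1.71% at P1 to at least 49.0% at P30, with E15.5 replicate 2 as the exception among the early libraries.

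Against HCs, 5 of the 6 genes were higher in SGNs taken as the mean of the 5 ages, where 26.8% of genes were called in one direction or the other. HC libraries held 44.2, 52.7 and 58.1 normalised CPM of Kcnq3, 2.48, 3.21 and 5.14 of Hcn2, 8.15, 5.70 and 7.39 of Hcn3, and 12.9, 20.8 and 14.6 of Hcn4. For Kcnq3, Hcn3 and Hcn4 each of the 15 SGN libraries exceeded each HC library, whereas the Hcn2 values of HCs overlapped those of SGNs at E15.5 and lay below those of all later ages. The differences were 4.98-fold for Kcnq3 (log2 2.32 ± 0.35 SE, adjusted p = 8.84e-06), 5.77-fold for Hcn2 (log2 2.53 ± 0.49 SE), 5.15-fold for Hcn3 (log2 2.36 ± 0.47 SE) and 5.64-fold for Hcn4 (log2 2.49 ± 0.31 SE, adjusted p = 6.37e-07). Kcnq5 was at 1.42, 0 and 0 in HCs, with 24 reads in replicate 1, and log2 7.79 ± 1.94 SE higher in SGNs (adjusted p = 0.00196). Its call was lost when HC replicate 2 or 3 was left out (adjusted p = 0.0214 and 0.0225), and a fold against 2 libraries at 0 depends on the small count that voom adds.

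These 5 fold changes sat close to the 4-fold limit, Kcnq5 apart. Scaling by library size alone, which moved the median gene between SGNs and HCs from log2 0.02 to -0.53, left Kcnq5 as the 1 call of the 5, with log2 1.76 to 1.98 for the other 4. Kcnq1 was the exception in direction: HC libraries held 2.07, 3.56 and 1.28 normalised CPM, within the SGN range, and the estimate was log2 -0.88 with a 95% confidence interval from -2.67 to 0.92. Marginal and dark cell genes summed to no more than 0.858 normalised CPM per kilobase in HC libraries.

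Against glia, SGNs were higher for Kcnq3, Hcn2, Hcn3 and Hcn4, 4 of the 6 genes, where 24.7% of genes were called. The same 4 were called when only P8 SGNs were set against the P8 glia, the comparison in which age matches, where 20.9% of genes were called. At P8 the differences were log2 3.91 ± 0.65 SE for Kcnq3, 36.6-fold for Hcn2 (log2 5.19 ± 0.70 SE), 30.8-fold for Hcn3 (log2 4.95 ± 0.83 SE) and 43.1-fold for Hcn4 (log2 5.43 ± 0.63 SE, adjusted p = 1.32e-06). Glia held 70.2, 2.96 and 13.7 normalised CPM of Kcnq3, 0.929, 0.610 and 0.676 of Hcn2, 3.82, 0.349 and 0.386 of Hcn3, and 6.30, 1.05 and 1.26 of Hcn4. Replicate 1, which also carried the most SGN marker RNA, was the highest of the 3 for each. Its outer HC marker sum was the highest too, 263 against 23.5 and 20.6 normalised CPM per kilobase. The part of SGN or HC RNA in these glia values was not tested. Without replicate 1 the P8 differences were larger, at log2 5.41 for Kcnq3, 6.12 for Hcn3 and 6.38 for Hcn4.

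Kcnq5 did not separate SGNs from glia. The difference from the mean of the SGN ages was log2 0.24 with a 95% confidence interval from -1.71 to 2.19, and from P8 SGNs 1.63, from -0.36 to 3.62. Glia replicate 1, with the most SGN marker RNA, was not the library with the most Kcnq5, which was replicate 3 at 99.1. Kcnq1 had 5, 0 and 0 reads in glia and was log2 3.75 ± 1.19 SE higher in SGNs (adjusted p = 0.0127), short of the limit of 0.01.

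Between HCs and glia, 3 of the 6 genes were called against 24.4% of all genes. Kcnq1 (log2 4.63 ± 1.37 SE, adjusted p = 0.00886) and Hcn4 (log2 2.82 ± 0.68 SE, adjusted p = 0.00214) were higher in HCs and Kcnq5 (log2 -7.55 ± 2.08 SE, adjusted p = 0.00564) was lower. Kcnq1 and Kcnq5 here rest on 2 libraries at 0 in 1 of the groups. Kcnq1 was called in 6 of 14 alternatives and lost when any 1 of the 6 HC and glia libraries was left out, Kcnq5 in 8 of 15, and Hcn4 in 11 of 15.

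**Figure D4:**
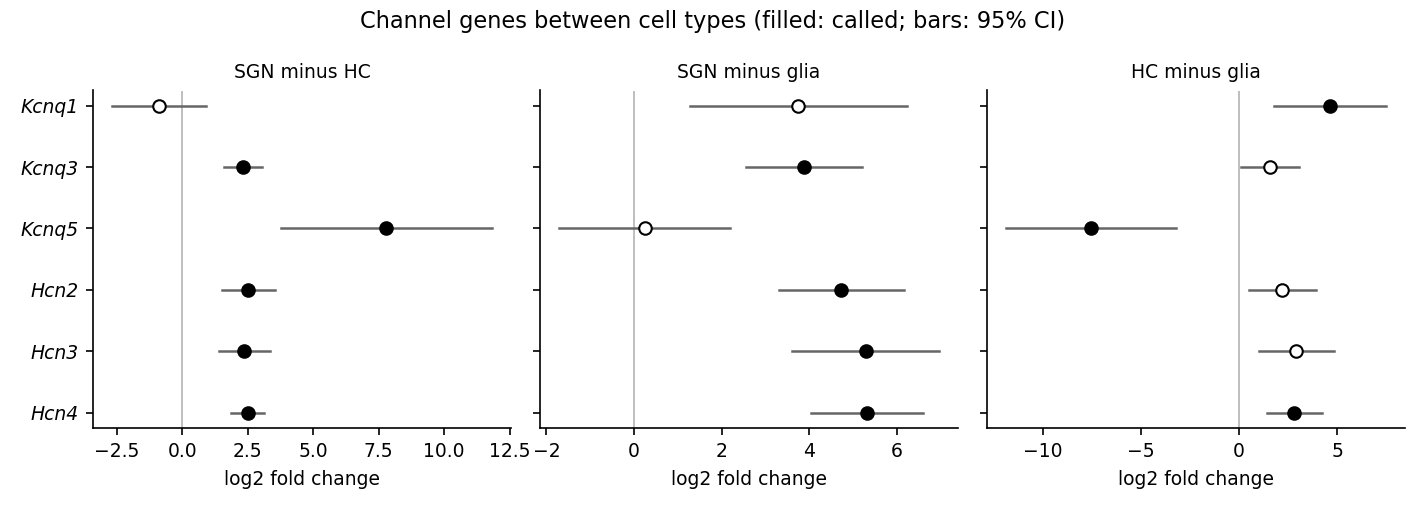
Log2 fold change of each gene between cell types (limma-voom over 21 libraries; SGN is the mean of 5 ages). Points are estimates, bars 95% confidence intervals, and filled points passed an adjusted p of 0.01 and 4-fold. Kcnq3, Hcn2, Hcn3 and Hcn4 are higher in SGNs than in both other cell types, and the Kcnq5 interval is wide against both HCs and glia.

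Genes that act on these channels were read from 4 lists. KCNE proteins are small accessory subunits of KCNQ channels. None of the 5 passed the expression filter in SGNs, and their mean levels there were at most 0.488 normalised CPM per kilobase, apart from Kcne4 at P8, whose mean of 1.69 came from 1 library at 5.06 with the other two at 0. Kcne2, the 1 tested across cell types, was higher in HCs than in SGNs (log2 -4.69 ± 0.76 SE for SGN minus HC, adjusted p = 2.23e-05). It had only 20 to 32 reads in HC libraries and no reads in SGNs at E15.5, P1 and P8, so this fold depends on the small count that voom adds. At P14 1 SGN library reached 0.776 normalised CPM per kilobase, against 0.591 to 0.776 in HC libraries.

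Of 15 M-current regulators, 14 were tested in SGNs. From E15.5 to P30 4 rose and 3 fell, with a median of log2 -0.07 against -0.01 over all genes, of which 34.6% were called. Calm2 and Calm3 encode calmodulin, which KCNQ channels carry as a bound partner, and rose 3.34-fold and 2.45-fold. Among the phospholipases C, which cleave PIP2 when Gq is active, Plcb1 (log2 3.48 ± 0.47 SE) and Plcb4 (log2 3.49 ± 0.31 SE) rose and Plcb3 fell by 2.05 on the log2 scale. Plcb1 made its rise by P1 (log2 3.88 ± 0.46 SE), while Plcb4 went on rising, from 6.93 ± 2.54 (SD, n = 3) normalised CPM per kilobase at E15.5 to 75.8 ± 18.4 at P30. Akap5, the anchoring protein that brings protein kinase C to M-channels, fell by 1.81 from P1 to P8 and by 4.40 over the span. Nedd4l, a ubiquitin ligase that acts on KCNQ subunits, fell by 1.88. Gnaq, Gna11, Pip5k1c, Slc5a3, Ank3, Sptbn4 and Chrm3 were not called over this span, although Chrm3, a Gq-coupled muscarinic receptor, rose from P1 to P30 (log2 1.76 ± 0.58 SE, adjusted p = 0.0343). From P1 to P8, where 7.44% of all genes were called, Plcb4 rose and Akap5 fell. From P8 to P14 and P14 to P30 none of the 14 was called in limma-voom, with 3 at an unadjusted p under 0.05 at each of these steps. Of all genes only 0.536% and 0.0596% were called there, so few calls among 14 genes could be looked for.

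Of 9 adenylyl cyclases, which make the cAMP that HCN channels bind, 8 were tested, and over the span, where 34.6% of all genes were called, Adcy8 and Adcy9 rose and Adcy6 and Adcy7 fell. The one with the highest level in SGNs at every age was Adcy1, the calcium-stimulated form of neurons. It rose 3.51-fold to P1 (log2 1.81 ± 0.17 SE, adjusted p = 1.49e-05) and fell by 1.05 on the log2 scale from P1 to P30, from a mean of 64.7 to 32.1 normalised CPM per kilobase. Of 5 HCN partner proteins 3 were tested. Pex5l, known as TRIP8b, which sets how many HCN channels reach the membrane, was at 13.2 to 15.1 normalised CPM per kilobase in group means of every SGN age and was not called at any step. Kctd3 fell by 1.16 and Vapb rose by 1.51 on the log2 scale from E15.5 to P30.

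**Figure D5:**
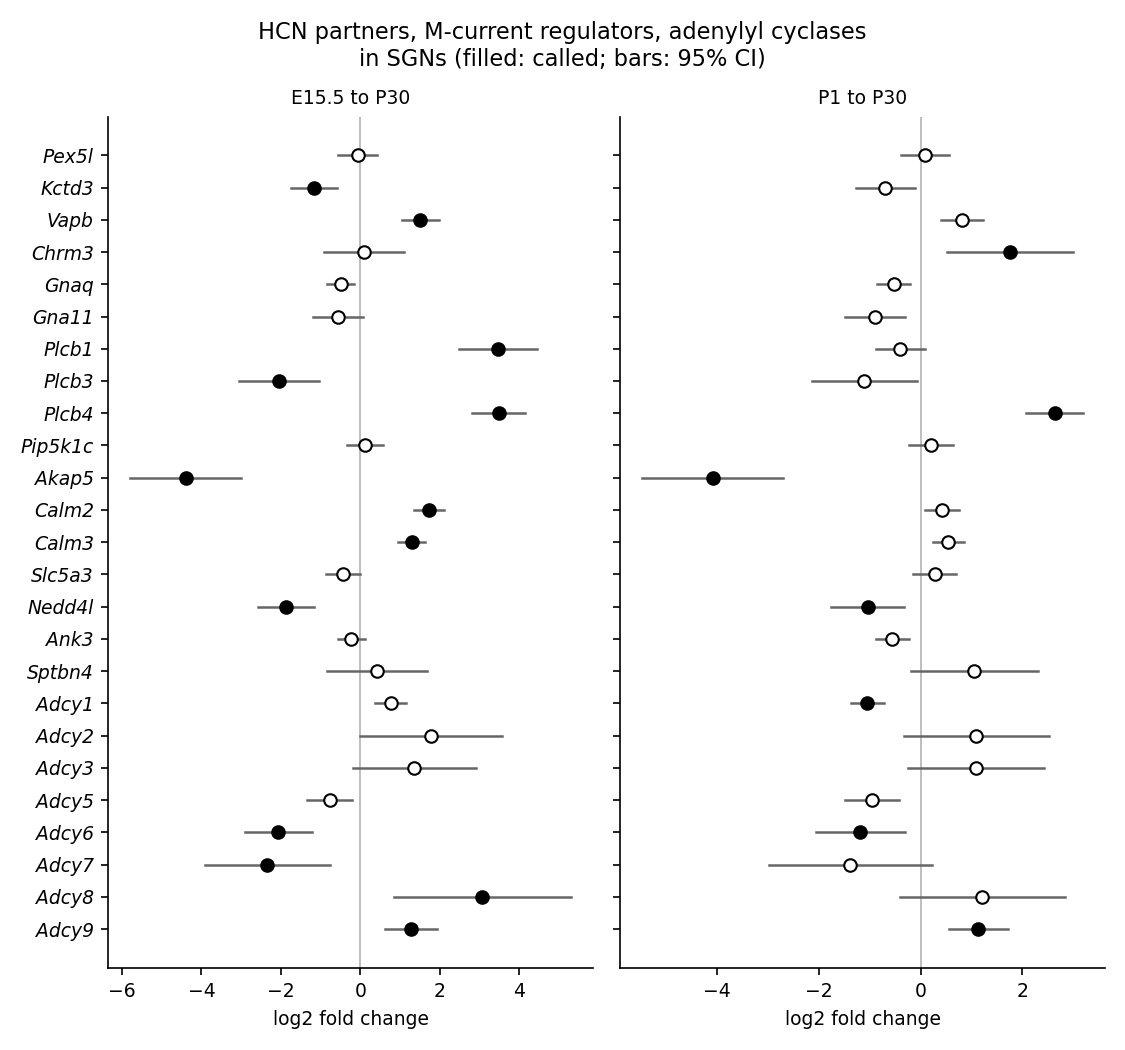
Log2 fold change in SGNs from E15.5 to P30 (left) and from P1 to P30 (right) of the 25 tested genes among HCN partners (top 3 names), M-current regulators (next 14) and adenylyl cyclases (last 8). Points are estimates, bars 95% confidence intervals, and filled points passed an adjusted p of 0.05 and 2-fold. Plcb1, Plcb4, Calm2 and Calm3 are up and Akap5 is furthest down over the longer span.

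The genes whose levels ran most like each channel gene were taken by Pearson's r of log2(TPM + 1) over the 21 libraries among 11283 genes, as a description only, since the points share libraries and the TPM share taken by Gm23935. For Kcnq3 they were Fam171b (r = 0.970), Adcy1 (0.965) and Fgf10 (0.963), so the cyclase with the P1 peak was also among the closest companions of this channel. For Kcnq5 they were Lrrk2 (0.933), Ahnak2 and Asb13, for Hcn2 Kcnab2 (0.974), Got1 and Ckb, for Hcn3 Cbarp (0.963), Ptprn2 and Aplp1, for Hcn4 Susd4 (0.978), Map1b and Cd24a, and for Kcnq1 Slc2a1 (0.827), Pigs and Zdhhc7. On log2(normalised CPM + 1), a scale chosen after that RNA was seen, all 3 names returned for Kcnq5 and Hcn3, 2 for Kcnq3 and 1 for each of the others.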

How the data were processed

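Cells of 7 groups, 3 libraries each, were profiled by bulk RNA-Seq after amplification of total RNA with the Ovation RNA-Seq System V2. The authors aligned reads to mm10 with STAR 2.4.0i and counted them per gene with featureCounts, and they deposited 1 table of raw counts with gene lengths. The strand setting of the counting is not given in the sources used here. A median of 67.9% of counts from 1 to 20 were even, so read ends may stand behind a count in pairs. Gene IDs were paired with symbols for 52403 of 52550 rows. Positions and exon overlaps are from GENCODE M21 (GRCm38). Nothing in the labels says that replicates came from separate animals, so p-values measure the spread between these libraries.

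Counts were analysed as deposited with limma 3.58.1 (voom, TMM factors from edgeR 4.0.16, 1 mean per group, two-sided, Benjamini-Hochberg over all genes tested). A gene was tested if some group had it above 1 CPM in each of its 3 libraries, in 15 SGN libraries for ages and in all 21 for cell types. The study's methods name this test and these limits. edgeR's quasi-likelihood test and DESeq2 1.42.0 were alternatives. A count of 3, the limit that a count of 0 allows, came to 0.0805 to 0.289 CPM and covers counting error only. The named genes were the 6 channel genes, 4 lists of related genes, and for each channel gene the 3 with the highest Pearson's r among genes over 10 CPM in all replicates of a group, with 1 added to TPM. Some genes of these lists and of the marker lists are not reported here and were left out of their counts and sums. The channel genes and the lists were chosen with earlier results of these data known. The fit was run on simulated data with known changes, in which every gene had the same setting for the spread between libraries. That run therefore does not cover genes whose libraries disagree widely, such as Kcnq5 at E15.5.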

Additional observations from a re-analysis of the deposited data

How the results depend on the processing

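Members called from E15.5 to P30, from P1 to P30 and in SGNs against glia stayed within 1.5 times their number in every alternative. From E15.5 to P1 the 3 became 1 with sample quality weights, without the low-count filter and with only the groups compared. From P8 to P14 the 1 became 0 in edgeR, in DESeq2, with library size only, without the low-count filter, with only the groups compared and with all 21 libraries. In SGNs against HCs the 5 became 1 with library size only. In HCs against glia the 3 became 5 in DESeq2 and with library size only, and 1 with sample quality weights, the CPM over 10 filter or only the groups compared. Leaving out 1 library at a time gave 1 to 2 members from E15.5 to P1, 2 to 4 from P1 to P8, 0 to 0 from P8 to P14 and from P14 to P30, 2 to 2 from E15.5 to P30, 3 to 4 from P1 to P30, 4 to 5 in SGNs against HCs and against glia, 0 to 3 in HCs against glia and 4 to 4 in P8 SGNs against glia. The cause of these changes was not tested.

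No estimate called in either fit changed sign. Of 1070 estimates of single genes, 33 did so, and those printed here are these. Kcnq5 from E15.5 to P1 was log2 -2.19 in edgeR, -2.21 in DESeq2, -0.070 with the replicate block, and -0.80 to 2.92 leaving out 1 library at a time (-0.62 without E15.5 replicate 1, -0.80 without replicate 3). Against glia it was -0.43 in edgeR, -0.57 in DESeq2, -0.24 without E15.5 replicate 2 and -0.98 without glia replicate 2, where leaving out 1 library at a time gave -0.98 to 1.32. With library size only, Hcn3 from E15.5 to P30 was -0.11, and Hcn4 was -0.24 from E15.5 to P30 and -0.25 from P1 to P30. Kcnq3 from E15.5 to P30 was 0.14 without E15.5 replicate 3, where leaving out 1 library at a time gave -0.36 to 0.14, and -0.55 with library size only.

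Replicate numbers were shared between groups, but deviations of same-numbered libraries did not correlate above 0.1 in every pair of any groups compared (P14 and P30: 0.371, 0.220 and 0.082), so the numbers were not taken as pairs. Even so, replicate 1 correlated at 0.249 to 0.378 in every pair of postnatal SGN ages. P8 and P30, which were not compared here, gave 0.378, 0.172 and 0.146. The source of this likeness among same-numbered libraries was not tested. With the replicate block the number of members called was 3, 4, 1, 0, 2 and 3 in the age comparisons in the order above, 5 in SGNs against HCs, 5 in SGNs and in P8 SGNs against glia, where Kcnq1 was added, and 4 in HCs against glia, where Hcn3 was added.

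With CPM in place of TPM the 7 groups kept their order for Kcnq5 only, and the same held for normalised CPM, an alternative chosen after seeing the data. With Spearman's rho none of the 3 most similar genes returned for Kcnq1, Kcnq3, Hcn2 and Hcn4, and 1 for Kcnq5 and Hcn3. Where libraries held 0 reads, as 2 glia libraries did for Kcnq1 and 2 HC libraries for Kcnq5, depth limits the level only to under 3 counts.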

Other observations

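Some regulators of these channels differed between the cell types, read from the same lists. Of 15 M-current regulators, 3 were higher in SGNs than in HCs (Calm3, Ank3 and Sptbn4) and 1 lower, where 26.8% of all genes were called. Against glia 4 were higher and 1 lower, where 24.7% of all genes were called. Of 8 adenylyl cyclases, 2 were higher and 1 lower against HCs, and 2 higher and 2 lower against glia. None of the 3 tested HCN partner proteins was called in either comparison. HCs stood out by Slc5a3, the myo-inositol transporter that can associate with KCNQ channels, at a mean of 96.2 normalised CPM per kilobase against 8.14 to 17.9 in SGN groups (log2 -3.10 ± 0.11 SE for SGN minus HC, adjusted p = 2.27e-15 in limma-voom) and 9.49 in glia. They also stood out by Adcy8, a calcium-stimulated adenylyl cyclase, at 16.3 against at most 0.834 in SGN groups (log2 -5.48 ± 0.33 SE, adjusted p = 1.09e-11) and 0.173 in glia. SGNs exceeded HCs in Ank3 and Sptbn4, the ankyrin-G and beta-IV spectrin of the axon initial segment where KCNQ channels are held, by log2 2.17 ± 0.17 SE and 3.91 ± 1.07 SE, and exceeded both other cell types in Adcy1 (log2 2.71 against HCs and 3.99 against glia) and Adcy5 (3.96 and 3.83). Chrm1, a Gq-coupled muscarinic receptor, was the 1 M-current regulator lower in SGNs than in glia (log2 -4.16 ± 1.02 SE, adjusted p = 0.00193), at 0.134 to 7.56 normalised CPM per kilobase in the 3 glia libraries.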
